A study of Mus musculus with 8 samples.

Results

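MHC class I presentation genes are described here in myeloid cells from the lungs of mice carrying a mammary tumour. They were taken as the probes for H2-D1, H2-K1 and Calr, every gene whose symbol starts with H2-Q or H2-T, and B2m, Tap1, Tap2 and Tapbp where measured. The panel of 754 genes held 10 of them: the heavy chains H2-K1, H2-D1, H2-Q1, H2-Q2, H2-Q10 and H2-T23, the peptide transporter subunits Tap1 and Tap2, the loading bridge Tapbp and the chaperone Calr. B2m was not analysed here.

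The samples were 4 from mice given DSHN, a small-molecule agonist of NR0B2, which is a nuclear receptor, and 4 from mice given DMSO as placebo, called DSHN 1 to 4 and DMSO 1 to 4. All 24 mice were Balb/c animals grafted with 4T1, a mammary tumour line from the same strain that metastasises to lung, and treatment at 10 mg/kg ran daily for 7 days from 10 days after the graft; no ungrafted or untreated mice were used here. Each sample pooled the lungs of 3 mice of one treatment, and cells were taken with beads against CD11b and CD11c, which bind neutrophils, monocytes and macrophages as well as dendritic cells. RNA was counted on a NanoString nCounter panel, in which each gene is read by a colour-coded probe without amplification.

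MHC class I molecules show fragments of a cell's own proteins to CD8 T cells. Cytosolic proteins are cut by the proteasome, the Tap1 and Tap2 transporter carries the peptides into the endoplasmic reticulum, and Tapbp (tapasin) and Calr (calreticulin) hold an empty heavy chain there until a peptide binds. Interferons raise much of this machinery together. In myeloid cells of a tumour-bearing lung the pathway serves to present both the cells' own antigens and antigens taken up from tumour cells.

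The labels call the cells dendritic cells. Of 9 dendritic cell markers on the panel, 3 lay above background in all 8 samples, as did 291 of the 754 genes. Ccr7 and Batf3 were under the limit only in DSHN 1, and Xcr1, a defining receptor of cross-presenting dendritic cells, was above it in none. For neutrophils 7 of 9 markers and for monocytes and macrophages 7 of 11 lay above background in all 8. Markers of each of these cell types were thus measured, and the beads bind all of them. The values are therefore read as those of a mixed myeloid preparation, in which fewer cells of a type and less RNA per cell cannot be told apart. Counts recovered from the deposited values summed to 123670 over the gene probes in DSHN 1 and to between 533075 and 923530 in the other samples, so DSHN 1 is the least precise. Values below are log2 values after each sample was scaled to the mean of 4 housekeeping genes (Oaz1, Ppia, Rpl19, Tubb5), called the housekeeping scale. As deposited, the median difference between DSHN and DMSO over the 554 genes tested was -1.87, and scaling brought it to 0.03. In DMSO 1, Tubb5 lay at -1.40 from the mean of the other 7 samples while Oaz1, Ppia and Rpl19 lay at 0.60, 0.26 and 0.55, so the scaling of DMSO 1 depends on which housekeeping genes are used.

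Promoter sequences of 5 of these genes are printed here to set the control-element motifs of 3 heavy chains beside those of a transporter subunit and a chaperone. The windows, from 250 bases before to 50 bases after the annotated start, come from RefSeq on build GRCm38.p6 (mouse strain C57BL/6J) and were present for 8 of the 10 genes. Balb/c mice carry other alleles of the class I heavy chains, so these letters are those of the reference strain. H2-K1 lies on the minus strand at chr17:34000298-34000597, H2-D1 on the plus strand at chr17:35262844-35263143, H2-T23 on the minus strand at chr17:36032652-36032951, Tap1 on the plus strand at chr17:34187306-34187605 and Calr on the minus strand at chr8:84846882-84847181. Capitals mark matches on either strand to the motifs GGGGATTCC (the NF-kB site known as enhancer A), GAANNGAAA or GAAANNGAA (interferon-response element cores with short or long spacing), TGACG (a CRE-like site), CCAAT (the CCAAT box) and CCAAT followed 9 bases later by CCACG (the endoplasmic reticulum stress response element, which contains a CCAAT box).
H2-K1: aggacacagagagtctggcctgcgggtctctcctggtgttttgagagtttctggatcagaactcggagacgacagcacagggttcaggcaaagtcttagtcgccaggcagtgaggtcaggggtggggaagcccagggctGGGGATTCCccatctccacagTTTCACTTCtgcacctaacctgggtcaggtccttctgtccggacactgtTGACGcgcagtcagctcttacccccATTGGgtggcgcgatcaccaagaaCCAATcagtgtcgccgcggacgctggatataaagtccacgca
H2-D1: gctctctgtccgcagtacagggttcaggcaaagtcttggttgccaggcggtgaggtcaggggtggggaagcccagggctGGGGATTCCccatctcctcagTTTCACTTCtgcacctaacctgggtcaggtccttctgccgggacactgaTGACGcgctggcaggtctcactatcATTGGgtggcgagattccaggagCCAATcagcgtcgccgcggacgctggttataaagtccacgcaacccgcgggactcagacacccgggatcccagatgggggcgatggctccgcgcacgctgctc
H2-T23: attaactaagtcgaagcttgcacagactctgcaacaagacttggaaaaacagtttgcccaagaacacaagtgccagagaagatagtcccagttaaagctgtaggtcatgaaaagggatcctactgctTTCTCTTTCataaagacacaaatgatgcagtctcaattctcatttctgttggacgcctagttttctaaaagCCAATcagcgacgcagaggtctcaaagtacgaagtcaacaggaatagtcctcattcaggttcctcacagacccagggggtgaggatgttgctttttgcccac
Tap1: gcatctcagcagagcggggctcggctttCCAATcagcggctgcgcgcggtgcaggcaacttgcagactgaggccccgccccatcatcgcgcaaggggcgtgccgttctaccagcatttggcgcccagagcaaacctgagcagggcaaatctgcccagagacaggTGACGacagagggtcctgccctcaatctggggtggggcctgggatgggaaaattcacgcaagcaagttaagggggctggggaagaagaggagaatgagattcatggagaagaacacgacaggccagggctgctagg
Calr: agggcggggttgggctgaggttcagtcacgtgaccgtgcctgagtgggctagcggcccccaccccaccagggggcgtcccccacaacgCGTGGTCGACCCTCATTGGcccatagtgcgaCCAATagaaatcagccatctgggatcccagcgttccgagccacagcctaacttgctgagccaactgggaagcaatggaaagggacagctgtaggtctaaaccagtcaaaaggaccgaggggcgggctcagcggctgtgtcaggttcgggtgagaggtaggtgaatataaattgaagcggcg

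In the H2-K1 window the NF-kB motif began 111 bases and the interferon-response motif 90 bases before the start. In the H2-D1 window they began 171 and 150 bases before it. A second H2-K1 window, not printed, has another annotated start and gives 125 and 104 bases. In the printed H2-K1 window a CCAAT match began 8 bases after the start, where the like match in H2-D1 began 53 bases before it. These distances therefore depend on where the start is annotated. The printed H2-K1 and H2-D1 windows were identical at 211 of 239 aligned bases (88.3%). Over all 32851 promoter windows of the same length, GGGGATTCC was present in 0.25%, GAANNGAAA in 7.52%, GAAANNGAA in 8.56%, TGACG in 20.8% and CCAAT in 37.4%. H2-T23, a non-classical class I gene, had the long-spaced interferon-response motif 123 bases before its start and no match to GGGGATTCC in this window. Tap1 matched TGACG 86 bases and CCAAT 222 bases before its start, and its window shared 275 bases with that of Psmb9, an immunoproteasome subunit transcribed in the opposite direction. Calr matched the stress element 162 bases before its start, which 0.119% of all windows hold. A match is a description of the letters and not evidence of binding.

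No class I gene passed the test for a difference between DSHN and DMSO. Among 9 genes tested, the mean was lower in DSHN for 7 (H2-K1, H2-D1, H2-Q1, H2-Q2, Tap1, Tapbp and Calr) and higher for 2 (H2-T23 and Tap2), with a median difference of -0.31. Over the whole panel tested, 46.6% of genes had a lower and 53.4% a higher mean. With Tubb5 left out of the scaling 6 of the 9 had a lower mean and the median was -0.14, where 27.8% of all genes had a lower mean and the median of all genes was 0.20. When DMSO 1 and DSHN 1 were left out, 6 of the 9 had a lower mean, where 40.4% of all genes did, and the class I median was -0.06; without DMSO 1 alone it was -0.0033. In limma with Benjamini-Hochberg adjustment over 554 genes, 0 of the 9 and 0 of all genes were called (0% of genes tested), with adjusted p of 0.925 to 0.996 for the 9 genes. At an unadjusted p under 0.05 there were 0 of the 9 and 20 of 554 genes (3.61%), of which 3 (0.542%) were lower in DSHN. Every DSHN sample lay under every DMSO sample for 0 of the 9 genes and for 0.722% of all genes, and over it for 0 of the 9 and for 2.53% of all genes.

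On the deposited scale all 9 had a lower mean in DSHN, with differences from -2.42 for H2-K1 to -1.79 for H2-T23. That scale carries a spike-in factor, which was 6.84 in DMSO 1 and 0.605 to 1.17 in the other samples. Positive controls POS_A to POS_E had a geometric mean of 563 counts in DMSO 1 and 3281 to 6392 in the others. The remaining positive control was left out of this mean. The deposited differences include the spike-in factor. On that scale, 7 of the 9 reached an unadjusted p under 0.05, where 35.4% of all genes did. For 4 of the 9 (H2-D1, H2-Q2, Tap2 and Tapbp) every DSHN sample lay under every DMSO sample, where 40.8% of all genes did. The lowest adjusted p of a class I gene over all settings tried was 0.127, on this scale.

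H2-K1, a classical heavy chain that presents peptides to CD8 T cells, read 11.89, 12.13, 12.25 and 12.68 in DSHN 1 to 4, against 13.64, 12.69, 12.38 and 12.32 in DMSO 1 to 4. DMSO 1 was the highest sample, 0.95 above the next, and the other 3 DMSO samples fell within the upper part of the DSHN range or just above it. The mean was 12.24 ± 0.33 in DSHN and 12.75 ± 0.61 in DMSO (SD, n = 4 each), a difference of -0.52 (95% interval -1.24 to 0.20). Without DMSO 1 it was -0.22.

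H2-D1, the other classical heavy chain measured, read 12.85, 12.59, 12.79 and 12.98 in DSHN 1 to 4, against 13.83, 13.05, 12.70 and 12.98 in DMSO 1 to 4. Again DMSO 1 stood 0.78 above the next sample, and the remaining 7 samples spanned only 0.46. The difference was -0.34 (95% interval -0.92 to 0.25), and -0.11 without DMSO 1. Class I heavy chains are close copies of each other, and Balb/c mice also carry the related gene H2-L, so a probe for one may bind transcripts of another; this was not tested, and the values of single heavy chains are uncertain for that reason.

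H2-Q1, a heavy chain of the Qa region, read 9.46, 9.10, 9.33 and 9.25 in DSHN 1 to 4, against 10.64, 9.49, 9.34 and 9.04 in DMSO 1 to 4. The DMSO samples held both the highest and the lowest value, with DMSO 1 1.15 above the next sample. Its difference was -0.34 (95% interval -1.07 to 0.39), and without DMSO 1 it was -0.0033.

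H2-Q2, also of the Qa region, lay near background. It was above background in 2 of 4 DSHN and 4 of 4 DMSO samples, with recovered counts of 29, 19, 39 and 27 in DSHN 1 to 4 against 69, 56, 41 and 42 in DMSO 1 to 4. On the housekeeping scale it read 7.23, 4.09, 5.48 and 4.88 in DSHN, against 6.47, 5.19, 5.05 and 5.28 in DMSO. DSHN 1 was highest there although its 29 counts were under that sample's background limit of 40.1, since scaling raised every value of that sample by 3.10. The difference of -0.08 had a 95% interval of -1.51 to 1.35, was -0.68 with background subtracted and was 0.37 without DSHN 2. H2-Q10, which in mice is known as a secreted class I protein of the liver, was above background in 0 of 8 samples, with at most 11 counts, and no difference is given.

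H2-T23 encodes Qa-1, a non-classical heavy chain that displays leader peptides of other class I chains to the inhibitory receptor CD94/NKG2A of NK cells. It read 10.74, 10.09, 10.27 and 9.67 in DSHN 1 to 4, against 10.36, 10.16, 10.18 and 9.61 in DMSO 1 to 4. The groups overlapped almost fully, with DSHN 1 highest and DMSO 4 lowest. Its difference was 0.12 (95% interval -0.49 to 0.72), -0.07 without DSHN 1 and -0.04 without DMSO 4.

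**Figure D1:**
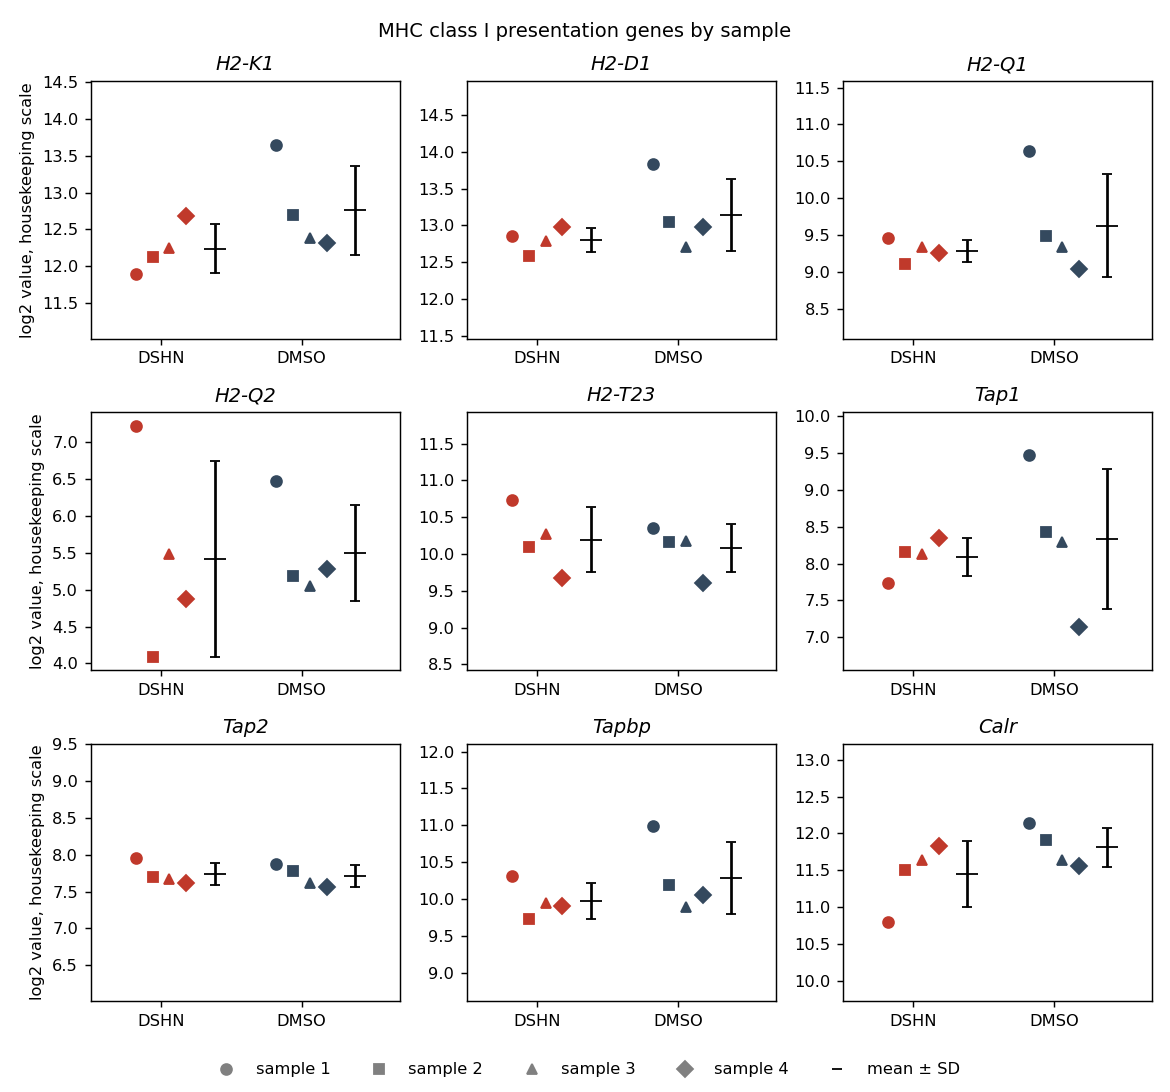
Log2 values on the housekeeping scale of the 9 class I genes tested, 1 panel a gene with axes of equal height; each point is 1 sample, its shape gives the sample number, and the black mark is the mean with the SD of 4 samples. DMSO 1 (circle) stands above the other samples for H2-K1, H2-D1, H2-Q1, Tap1 and Tapbp, and Tap2 is nearly level in all 8.

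Among the genes that deliver and load peptides, the subunits of the peptide transporter did not vary alike. Tap1 read 7.73, 8.16, 8.13 and 8.35 in DSHN 1 to 4, against 9.47, 8.43, 8.29 and 7.14 in DMSO 1 to 4. It had the widest range of the 8 class I genes above background in all samples, 2.33, and both its highest and its lowest value were in DMSO. The difference was -0.24 (95% interval -1.19 to 0.71), 0.14 without DMSO 1 and -0.64 without DMSO 4. In DSHN 1 it rested on 41 counts, just over the background limit of 40.1, with an exact 95% Poisson interval of 7.25 to 8.17 on the housekeeping scale, which covers counting error only.

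Tap2, its partner subunit, read 7.96, 7.70, 7.67 and 7.62 in DSHN 1 to 4, against 7.88, 7.78, 7.62 and 7.56 in DMSO 1 to 4. These values spanned 0.40, the narrowest range of the 8 genes, and the groups overlapped. The difference was 0.03 (95% interval -0.40 to 0.45). DSHN 1 rested on 48 counts.

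Tapbp, which bridges the transporter and the empty heavy chain, read 10.31, 9.73, 9.95 and 9.90 in DSHN 1 to 4, against 10.99, 10.19, 9.89 and 10.05 in DMSO 1 to 4. DMSO 1 was again highest, by 0.68. Its difference was -0.31 (95% interval -0.91 to 0.30), and -0.07 without DMSO 1.

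Calr, a lectin chaperone that binds newly made heavy chains and many other glycoproteins, read 10.80, 11.50, 11.64 and 11.83 in DSHN 1 to 4, against 12.14, 11.91, 11.64 and 11.56 in DMSO 1 to 4. Here the sample farthest from the rest was DSHN 1, the lowest, with 344 counts, well above background. The difference was -0.37 (95% interval -0.96 to 0.22), -0.15 without DSHN 1 and -0.26 without DMSO 1.

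**Figure D2:**
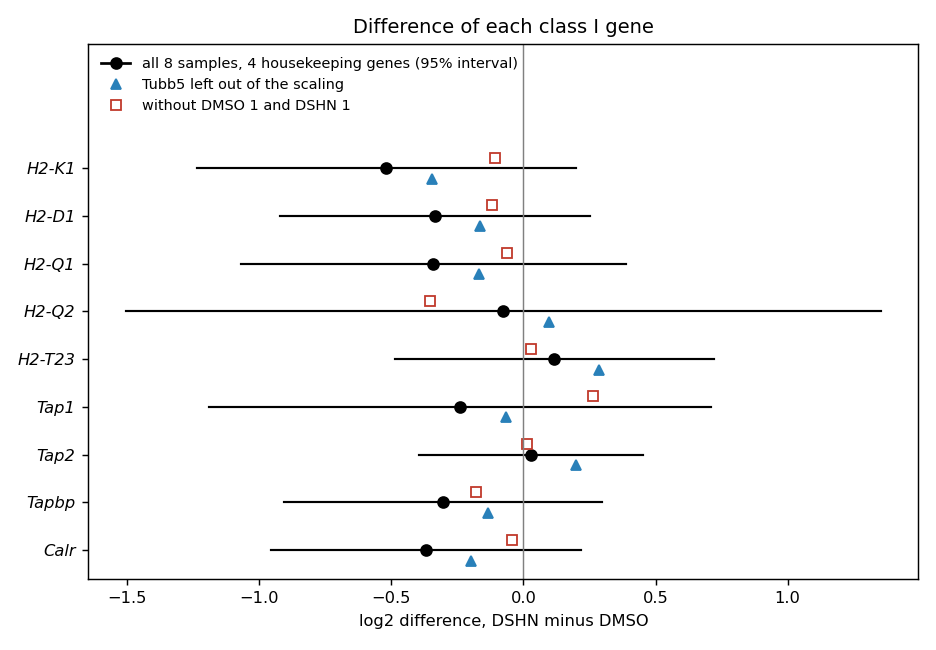
Log2 difference (DSHN minus DMSO) of the 9 class I genes tested with its 95% interval from limma (black), the same with Tubb5 left out of the scaling (blue triangles) and without DMSO 1 and DSHN 1 (open red squares). Every 95% interval spans 0, and without DMSO 1 and DSHN 1 the differences of H2-K1 and Calr shrink to -0.11 and -0.04 while that of Tap1 is 0.26.

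Of the 8 class I genes above background in all samples, 6 were highest in DMSO 1, where 48.8% of the 291 genes above background in all samples were. With Tubb5 left out of the scaling it was 5 of the 8, against 32% of the 291, and DMSO 1 then lay above the mean of the other samples by 0.84 for H2-K1, 0.89 for H2-Q1 and 0.97 for Tap1, against 0.12 for Calr. On the 4-gene scale the same distances were 1.31 for H2-K1, 1.35 for H2-Q1, 1.44 for Tap1 and 0.59 for Calr. DMSO 1 also had the highest summed level of neutrophil markers (17.77, where DSHN samples ranged from 16.08 to 17.25 and the other DMSO samples reached 16.73) and of monocyte and macrophage markers (13.54, with 12.39 to 12.85 in DSHN samples and at most 12.95 in the other DMSO samples), on the log2 housekeeping scale. Genes of the macrophage list did not move together there: Fcgr1 read 11.15 in DMSO 1, against 7.41 to 8.13 in the other samples, while Siglecf and Mertk were lowest in DMSO 1, with Siglecf at 6.17 against 7.93 to 9.02. The summed level of interferon-induced genes in DMSO 1 was 12.86, where DSHN samples reached 10.70 and the other DMSO samples 10.71. It lay mostly in Isg15 (11.49) and Irf7 (11.41), and Cxcl9 and Mx1 were not highest in DMSO 1. The summed level of fibroblast markers was 12.21 in DMSO 1, where DSHN samples reached 10.87 and the other DMSO samples 10.47. It lay mostly in Fn1 (12.17), which macrophages also express. The summed level of eosinophil markers was lowest in DMSO 1, at 8.50, with 9.56 to 11.25 in DSHN samples and 9.91 to 10.49 in the other DMSO samples. It lay mostly in Prg2 and Siglecf, the 2 above background in all 8 samples, and both were lowest in DMSO 1. Siglecf is also on the macrophage list. Ccr3, Il5ra, Il13 and Il4 were not lowest in DMSO 1. The summed level of dendritic cell markers was 11.44 to 11.50 in DSHN and 11.23 to 11.52 in DMSO, with DMSO 1 the lowest. This near-level sum hides that the 3 of them above background in all 8 samples did not move together in DMSO 1. Cd83 was highest there (10.74). Itgax was lowest there (7.53, against 9.06 to 9.87 in the other samples), as was Ccl22 (6.81, against 7.11 to 8.68). The summed level of all 554 genes tested was also highest in DMSO 1, at 19.83, where DSHN samples reached 19.36 and the other DMSO samples 19.19. All these sums are on the 4-gene scale, which places DMSO 1 higher than scaling without Tubb5 does, and they were not taken with Tubb5 left out. The part of these genes and cell types in the class I values was not tested.

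Samples other than DMSO 1 at the ends of the ranges were DSHN 1, DSHN 2 and DMSO 4. H2-T23 and Tap2 were highest in DSHN 1, while H2-K1 and Calr were lowest there. H2-D1 and Tapbp were lowest in DSHN 2, and H2-Q1, H2-T23, Tap1 and Tap2 in DMSO 4. In DSHN 1 the T cell markers Cd247 (35 counts) and Icos (7 counts) and the endothelial markers Cd34 (29 counts), Cdh5 (20 counts) and Tek (23 counts) were all under that sample's background limit of 40.1 counts.

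Ratios of 2 genes within a sample do not depend on any scaling. Of 6 ratios compared, 0 passed (exact two-sided permutation test over 70 assignments, smallest p possible 0.0286, adjusted p from 0.754 to 0.829 over the 6), and 0 had an unadjusted p under 0.05. H2-K1 over H2-D1 was -0.96, -0.46, -0.54 and -0.30 in DSHN 1 to 4, against -0.19, -0.36, -0.32 and -0.66 in DMSO 1 to 4, as log2 ratios of probe counts. The groups overlapped, with a difference of -0.18 (exact permutation p = 0.40) that was 0.01 without DMSO 1 and DSHN 1. H2-T23 over H2-K1, non-classical over classical, was -1.15, -2.04, -1.98 and -3.01 in DSHN, against -3.28, -2.53, -2.20 and -2.71 in DMSO. The ratio was higher in DSHN by 0.64 on average, with 3 of 4 DSHN samples above all DMSO samples and DSHN 4 below 3 of the 4 (exact permutation p = 0.229, adjusted p = 0.754). Without DMSO 1 and DSHN 1 it was 0.14.

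Tap1 over Tap2 was -0.23, 0.46, 0.46 and 0.73 in DSHN 1 to 4, against 1.59, 0.65, 0.67 and -0.42 in DMSO 1 to 4. The SD over samples was 0.41 in DSHN and 0.82 in DMSO, and the difference of -0.27 was smaller than either (exact permutation p = 0.629). H2-K1 over H2-Ab1, class I over a class II chain, was 2.77, 2.62, 2.72 and 2.66 in DSHN, against 3.77, 2.54, 2.10 and 3.31 in DMSO. All 4 DSHN samples fell between the DMSO values, with an SD of 0.07 in DSHN and 0.75 in DMSO, and the means differed by -0.24 (exact permutation p = 0.60). Whether the spread itself differed between the groups was not tested. Calr over H2-K1 was -1.09, -0.63, -0.61 and -0.85 in DSHN, against -1.50, -0.78, -0.74 and -0.76 in DMSO, and Tapbp over Tap1 averaged 1.88 ± 0.48 in DSHN and 1.95 ± 0.65 in DMSO (SD, n = 4 each).

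**Figure D3:**
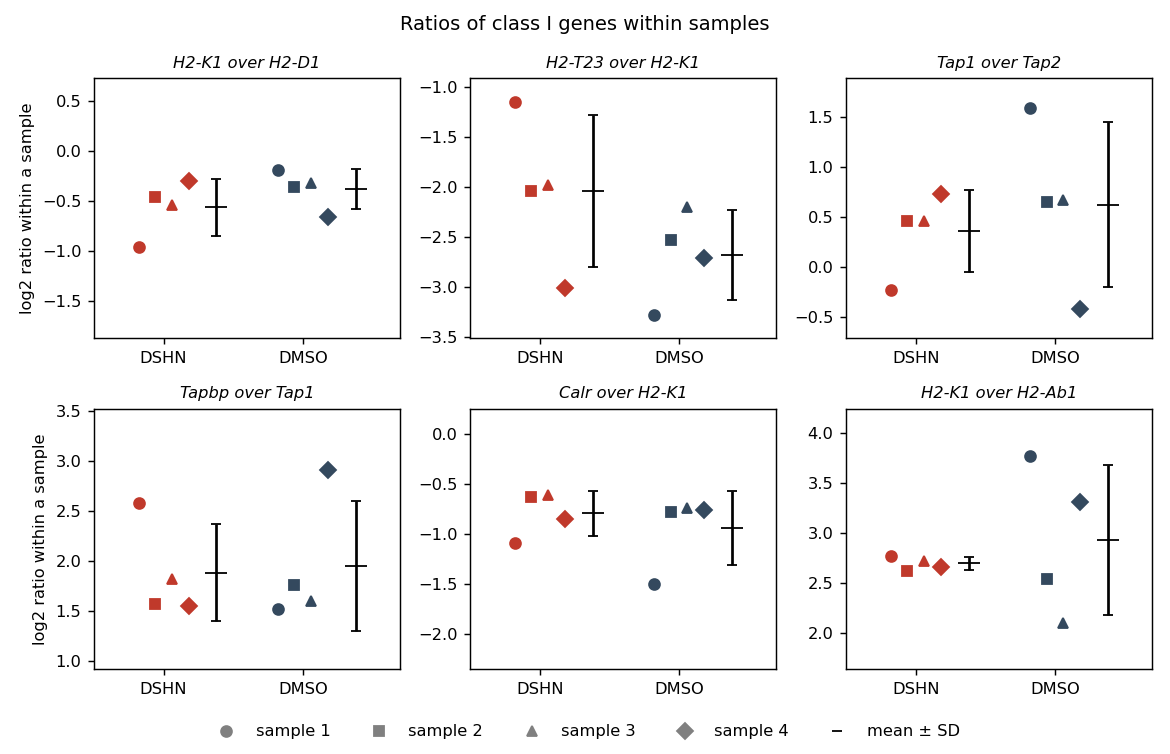
Log2 ratios of 6 pairs of genes within each sample; each point is 1 sample, its shape gives the sample number, and the black mark is the mean with the SD of 4 samples. H2-K1 over H2-Ab1 lies between 2.62 and 2.77 in the DSHN samples, inside the DMSO values of 2.10 to 3.77, and DMSO 1 and DMSO 4 are at opposite ends for Tap1 over Tap2.

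Other genes of the pathway were taken from lists. Of 3 immunoproteasome and proteasome activator genes, 0 were called and all 3 had a lower mean in DSHN, with a median difference of -0.29. Psmb8, an immunoproteasome subunit encoded beside Tap1 in the class II region, read 9.77, 9.64, 9.78 and 9.79 in DSHN 1 to 4, against 10.60, 10.00, 9.90 and 9.67 in DMSO 1 to 4. It differed by -0.30 ± 0.23 (SE), with DMSO 4 inside the DSHN range and the other 3 DMSO samples above it. Psme2, a subunit of the proteasome activator PA28, differed by -0.29 ± 0.29 and by 0.08 without DMSO 1 and DSHN 1. Psmb9, the subunit that shares its promoter region with Tap1, read 8.66, 7.86, 8.06 and 8.09 in DSHN, against 9.35, 7.94, 8.08 and 7.40 in DMSO. Like Tap1 it was highest in DMSO 1 and lowest in DMSO 4, but in DSHN 1 it was the highest DSHN sample where Tap1 was the lowest. Its difference was -0.02 ± 0.39.

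Of 5 genes for transcription factors that act on class I promoters, 0 were called, 2 had a higher and 3 a lower mean in DSHN, and the median was -0.07. Irf1, which binds interferon-response elements, read 8.42, 9.13, 9.16 and 9.46 in DSHN 1 to 4, against 10.16, 9.30, 9.29 and 8.32 in DMSO 1 to 4. As for Tap1, DMSO 1 was highest and DMSO 4 and DSHN 1 lowest. It differed by -0.22 ± 0.38 and by 0.28 without DMSO 1 and DSHN 1. Irf2, a related factor, differed by -0.07 ± 0.26, and Nfkb1, an NF-kB subunit, by 0.13 ± 0.23. Of 8 interferon-induced genes 0 were called, with 2 higher and 6 lower (median -0.06). Without DMSO 1 and DSHN 1 all 8 had a higher mean in DSHN (median 0.31), where 330 of the 554 genes tested did (median 0.06). DMSO 4 was the lowest DMSO sample for Isg15, Irf7, Mx2, Cxcl9, Cxcl10 and Cxcl11, but not for Mx1 and Usp18. Isg15, a ubiquitin-like protein induced by type I interferon, read 9.71, 9.56, 9.88 and 9.63 in DSHN, against 11.49, 9.30, 9.61 and 8.82 in DMSO, and was the 1 gene of that list above background in all 8 samples. Of the 5 interferon receptor and signalling genes tested 0 were called, with 2 higher and 3 lower (median -0.21). The receptor chains differed by -0.29 ± 0.32 for Ifnar2, -0.21 ± 0.23 for Ifnar1 and 0.11 ± 0.23 for Ifngr1, and the interferon genes Ifna1, Ifnb1 and Ifng were above background in 0 of 8 samples. Of the 9 class II genes tested 0 were called, with 1 higher and 8 lower, and a median of -0.14 that became 0.02 when DMSO 1 and DSHN 1 were left out. H2-DMa, which edits class II peptides, differed by -0.25 ± 0.23, H2-Ab1 by -0.28 ± 0.31, and Ctss, the protease cathepsin S that trims the invariant chain, by -0.64 ± 0.31 (-0.24 when both samples were left out). Of the 4 genes tested from the list for cross-presenting dendritic cells, 0 were called, and 3 had a higher mean in DSHN (median 0.28). Cybb, an oxidase subunit, was the 1 of them above background in all 8 samples and differed by -0.22 ± 0.26. Its value cannot be assigned to a cell type in this mixed preparation. Of other class I and class I-like chains 2 were tested and 0 called, with 1 higher and 1 lower. From a list of receptors for class I and class I-like chains, Klrk1 was the 1 gene measured, and it was not called.

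The genes whose profile over the 8 samples lay closest to the mean profile of the 8 class I genes were, by root mean square difference on the log2 scale, Psmb8 (0.056), Tnfaip3 (0.10), Ifnar1 (0.11), Nfil3 (0.12), Psme2 (0.14) and Stat3 (0.14), where the median over 283 candidate genes was 0.37. These distances are descriptive, and all genes share the same 8 samples and the same scaling. Tnfaip3 encodes the NF-kB inhibitor A20, Ifnar1 a chain of the type I interferon receptor, Nfil3 a leucine zipper transcription factor and Stat3 a transcription factor downstream of interleukin 6. Their differences between DSHN and DMSO were -0.37 for Tnfaip3, -0.21 for Ifnar1, -0.34 for Nfil3 and -0.31 for Stat3, and none was called. Among the class I genes, H2-D1 lay closest to the class I mean (0.15) and H2-T23 farthest (0.38). The nearest pair was H2-D1 with Tapbp (0.14) and the most distant H2-K1 with H2-T23 (0.63), while H2-K1 and H2-D1, with their like promoter windows, lay 0.23 apart.

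**Figure D4:**
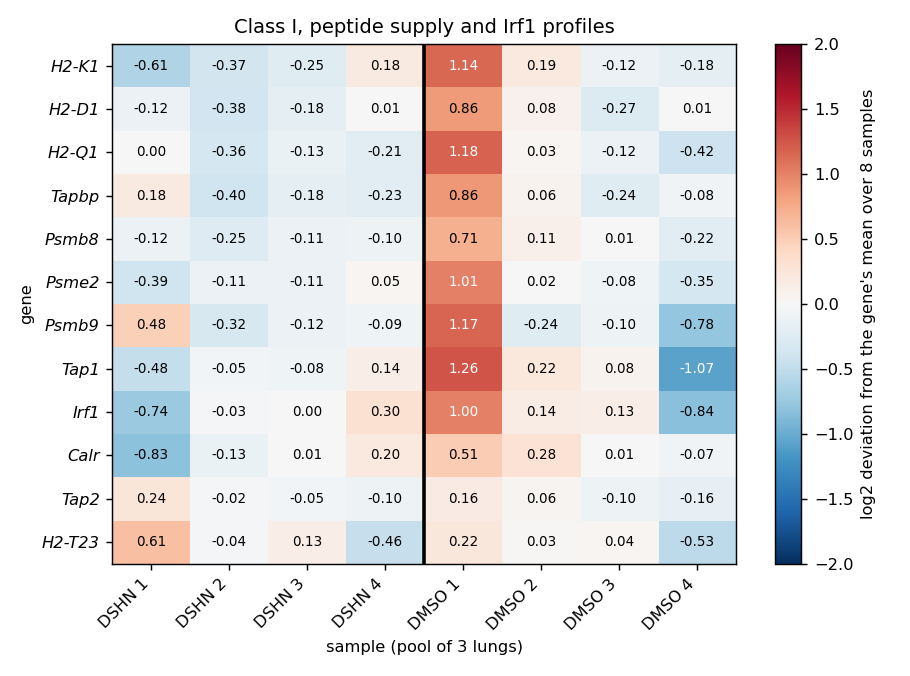
Deviation of each sample (columns) from the gene's mean over the 8 samples (log2, housekeeping scale) for 8 class I genes, 3 genes of peptide supply and Irf1 (rows); red is above and blue below the mean. The column of DMSO 1 is red for H2-K1, H2-D1, H2-Q1, Tapbp, Calr, Psmb8, Psme2, Psmb9, Tap1 and Irf1, and Tap2 stays within a range of 0.40.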

How the data were processed

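The deposited table holds 768 probes in 8 samples: 754 genes, 6 positive and 8 negative controls. Values are log2 with 2 decimals, as deposited by the authors; software and scaling are not given in the sources used here. Control probes are unscaled counts. Low gene values (under 40 counts) were whole multiples of 1 step per sample within 0.0051 on the log2 scale. This step, a spike-in factor, was 6.84 in DMSO 1 and 0.605 to 1.17 in the other samples, and it was removed to recover counts. Such counts are exact only when low. The background limit of a sample was set 2 SD over the average of its negative controls (17.9 to 40.1 counts).

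Each sample was shifted by the mean of 4 housekeeping genes. The fit was limma 3.58.1 in R 4.3.3 (trended variance, treatment as the 1 term). It ran on the 554 genes whose deposited value reached 20 in 4 or more samples, with Benjamini-Hochberg adjustment at 0.05. A check on simulated data drew noise independently for each gene and sample, so it held no deviation shared by a whole sample. H2-Q10 did not pass the filter. Within-sample ratios were tested by exact permutation; 2 further ratios needed B2m. Genes named beyond the members are up to 3 per list with the smallest p among those above background in all 8 samples, and the 6 most alike in profile. The members and lists were chosen with earlier results of these data known. Promoter windows were aligned with Biopython 1.88. Same-numbered samples did not deviate together in all pairs (correlation across 291 genes from -0.36 to 0.23), and nothing in the labels pairs them. Pools from separate mice counted as replicates. Alternatives were other scalings, filters, variance models and background subtraction, a replicate block and leaving out samples.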

Additional observations from a re-analysis of the deposited data

Results flagged for a closer look

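Of 28 groups of 4 values examined (the 8 class I genes above background in all samples and the 6 ratios, in DSHN and in DMSO), 1 had a sample far from the other 3, where chance gives about 1 in 20. Calr over H2-K1 in DMSO 1 was -1.50, against -0.78, -0.74 and -0.76 in DMSO 2 to 4, and its gap made up 0.947 of the range of the group, above the critical value of 0.829. The ratio is free of scaling, and the difference between DSHN and DMSO was 0.15 with this sample and -0.04 without it.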

How the results depend on the processing

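No alternative called a gene, a class I gene or a ratio after adjustment. By the rule used, 114 counts and medians stayed close to their value and 17 moved. The 114 include the counts of calls, which no alternative changed. A median counted as close if it kept its sign and moved by less than 0.36, the within-group SD of the class I mean. By that rule the class I median of -0.0033 without DMSO 1 counted as close to -0.31, although almost nothing of the difference was left. The count of genes at an unadjusted p under 0.05, 20 with all samples, was 196 as deposited, 40 without a filter, 4 among genes above background in all 8 samples, 12 with background subtracted, 11 with a replicate block and 11 to 28 leaving out 1 sample (11 without DSHN 3 and 12 without DSHN 1). As deposited, 7 class I genes reached an unadjusted p under 0.05, 0 were higher and their median was -2.21. Of the 9, 1 was higher in DSHN with background subtracted, and 0 (without DSHN 1 or DMSO 4) to 4 (without DMSO 1) leaving out 1 sample, with medians from -0.43 to -0.0033. With the replicate block the class I median and each class I difference did not change, since the groups hold the same numbers, and no call changed.

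As deposited the sign turned for H2-T23 (-1.79) and Tap2 (-1.87). With Tubb5 left out it turned for H2-Q2 (0.10), Psmb9 (0.15) and Isg15 (0.0625), with median centring for Psmb9 (0.0013), with quantile normalization for Psmb9 (0.13) and Isg15 (0.04), and with background subtracted for Tap2 (-0.11) and Tapbp over Tap1 (0.082). Without DMSO 1 and DSHN 1 it turned for Tap1 (0.26), Psme2 (0.0825), Psmb9 (0.20), Irf1 (0.28), Isg15 (0.45), H2-K1 over H2-D1 (0.013), Tap1 over Tap2 (0.25) and H2-K1 over H2-Ab1 (0.017). Both together, a setting chosen after seeing the data, gave 35 genes at an unadjusted p under 0.05 and 4 class I genes higher, with Calr at 0.0078, Tap1 at 0.31, Psme2 at 0.13, Psmb9 at 0.25, Irf1 at 0.33 and Isg15 at 0.50. Leaving out 1 sample gave -0.68 to 0.37 for H2-Q2, -0.065 to 0.29 for H2-T23, -0.64 to 0.14 for Tap1, -0.045 to 0.086 for Tap2, -0.29 to 0.36 for Psmb9, -0.54 to 0.074 for Irf1, -0.44 to 0.45 for Isg15, -0.61 to 0.055 for Tap1 over Tap2, -0.30 to 0.25 for Tapbp over Tap1, -0.035 to 0.25 for Calr over H2-K1 and -0.51 to 0.0425 for H2-K1 over H2-Ab1. The causes were not tested. Low counts limit H2-Q2, H2-Q10 and, in DSHN 1, Tap1 and Tap2.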
